A study of Mus musculus with 18 samples.

Results

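The 31 genes described here are markers of the non-neural cells that surround and supply the brain: 8 of endothelial cells, 9 of mural cells, 7 of fibroblasts and the meninges, and 7 of the choroid plexus. They were chosen by name, and each was read from its probe set with the highest mean among the probe sets that name a single gene. Of the 31, 30 had such a probe set, out of 18194 genes on the array. Enpp2, a secreted enzyme that makes lysophosphatidic acid and marks the choroid plexus, was not analysed here. In sorted microglia these genes were read as a measure of RNA from other cells in the sort, an assumption that was not tested. Some of them, such as Pecam1 and Anpep, are also carried by leukocytes.

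The RNA came from cells of pooled hippocampi of C57BL/6 mouse embryos at E17.5, dissociated with trypsin and DNase I and sorted for GFP driven by Cx3cr1, a gene of microglia and other macrophages. The embryos of each pregnant dam were pooled. The LPS group (4 arrays) came from wild-type embryos under maternal inflammation (LPS is lipopolysaccharide, a component of bacterial walls), and the PBS group (4 arrays) from the wild-type controls for it. The DAP12KO group (4 arrays) carried the DAP12-/- mutation and was untreated, and the UT group (6 arrays) was wild type and untreated. DAP12, encoded by Tyrobp, is a signalling adaptor of microglial receptors. The series compared LPS with PBS and DAP12KO with UT. Array names end in a year, written here as the names give it, and no source used here says what it marks. The arrays are 1 LPS and 1 PBS of _2008, 2 LPS and 2 PBS of _2010, 2 UT of _2012, and 4 DAP12KO, 4 UT, 1 LPS and 1 PBS of _2013. The embryos' sex is unknown by the labels.

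Brain capillaries are tubes of endothelial cells joined by tight junctions and wrapped by pericytes, the mural cells of small vessels, inside a shared basement membrane. Endothelial cells call pericytes with platelet-derived growth factor B and keep their own identity through the VEGF and angiopoietin receptors. Fibroblasts of the meninges lay down the collagen sheet over the brain surface, and the choroid plexus, an epithelium over a fenestrated vessel bed in the ventricles beside the hippocampus, secretes cerebrospinal fluid and transthyretin. Embryonic microglia travel along vessels and lie next to the meninges and ventricles, so a dissociated hippocampus can hold fragments of each of these tissues.

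All values are log2 expression as deposited. Array medians ran from 2.78 to 3.17. The lowest value, 2.19, was shared by 32.8% to 38.2% of an array's probe sets. A value under the 40th percentile of the probe sets' means (log2 2.49) is called near the floor. All 13 measured microglia markers were above that threshold on every array. Their mean was 11.46 and 11.81 on the 2 PBS arrays of _2010 and 12.76 to 13.92 on the other 16. On the same 2 arrays 14 neuron markers averaged highest (10.88 and 10.96, against 6.21 to 9.24), as did 10 neural progenitor markers (10.89 and 10.99, against 6.10 to 8.85). Xist, which coats the inactive X of females, read 2.21 on both and was at 12.97 and 13.07 on the LPS arrays of _2010. Tyrobp was 13.75, 13.80, 13.83 and 14.23 on the arrays labelled DAP12KO and 14.29 to 14.55 on the UT arrays, so it was bright in both groups. No source used here places its probe set relative to the mutation, so its level does not check that label.

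Most of the 30 genes were near the floor on most arrays. Lum, Kl and Aqp1 were near the floor on all 18 arrays, which is 3 of 30 genes against 22.7% of all 18194. Of the others, 13 were above the threshold on 1 to 3 arrays and 13 on 4 to 17. Pecam1 alone was above it on all 18, which is 1 of 30 against 49.6% of all genes. The number of the 30 genes above the threshold was 20 on each PBS array of _2010, 14 and 13 on the LPS arrays of _2010, and 5 to 11 on the 14 arrays of the other years. The lowest of these, 5 genes, was on DAP12KO replicate 5.

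**Figure D1:**
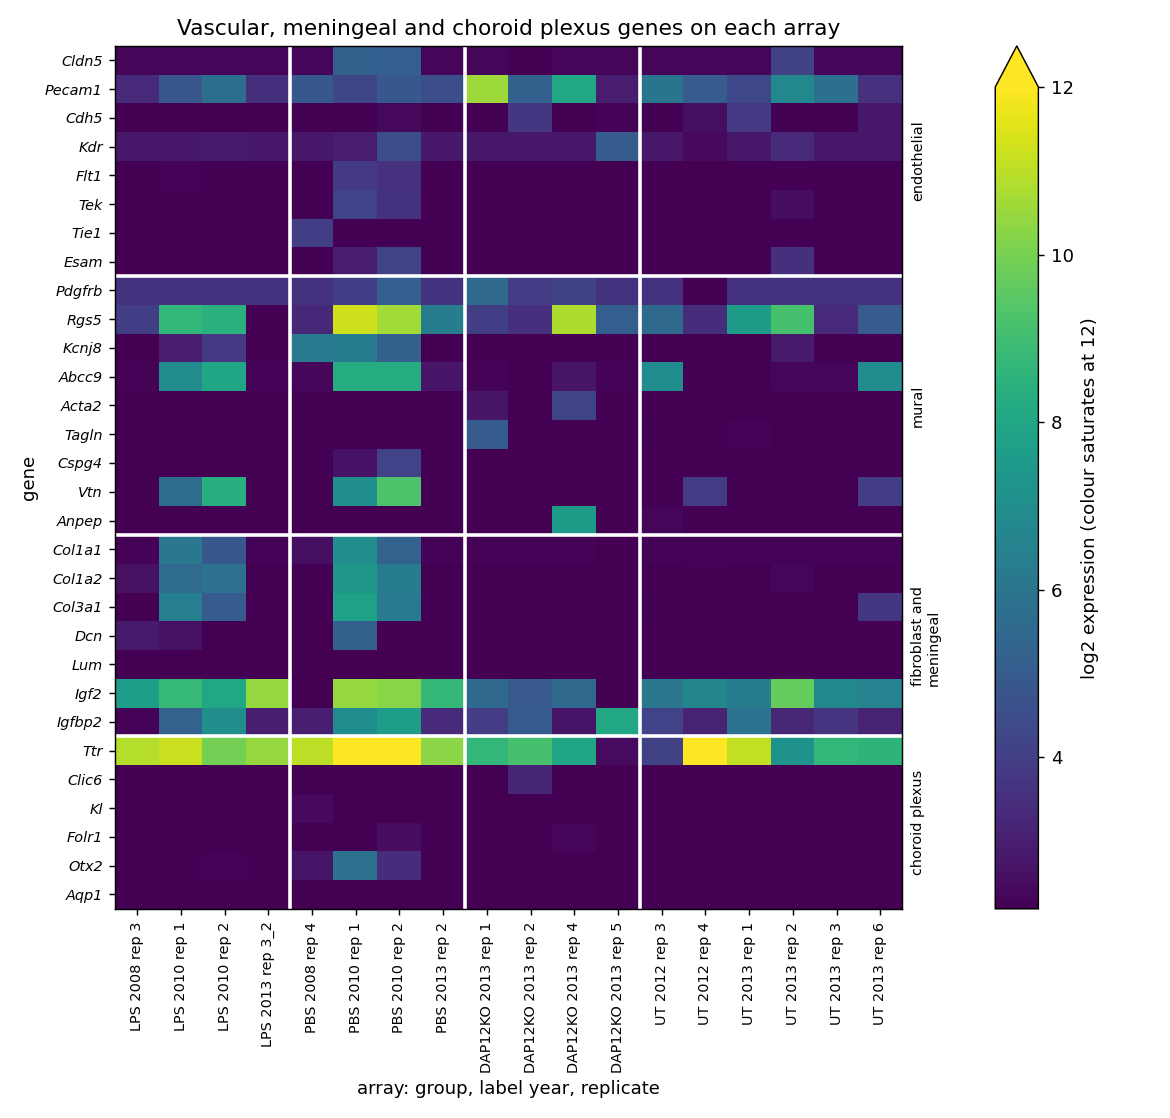
Log2 expression of the 30 genes with a probe set (vertical axis, grouped as endothelial, mural, fibroblast and meningeal, and choroid plexus) on each of the 18 arrays (horizontal axis, by group, label year and replicate), with the colour scale saturating at 12. The 2 PBS arrays of label year _2010 have 20 genes each above the near-floor threshold of 2.49, and Lum, Kl and Aqp1 are dark on all 18 arrays.

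A value above the threshold is not always a measured level, because a probe set can rest at a value of its own. Of the 30 genes, 23 had the same value (to 2 decimals) on 9 or more arrays. For most of them this was 2.19. Pdgfrb stood at 3.62 on 12 arrays and Kdr at 2.84 on 10, so for these genes only departures from those values were informative. By a margin of 0.1, Pdgfrb was higher than its recurring value on 5 arrays and Kdr on 4.

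Among the endothelial genes, claudin 5 separated the PBS arrays of _2010 from nearly all others. Cldn5, the tight junction protein of the blood-brain barrier, was 5.23 and 5.13 on the PBS arrays of _2010, 2.32 on the PBS arrays of _2008 and _2013, and 2.32 on all 4 LPS arrays. It was 2.32, 2.19, 2.35 and 2.32 on the DAP12KO arrays, and the UT arrays ran from 2.32 (also the median) to 4.10. Only 3 arrays of 18 were thus above the threshold: both PBS arrays of _2010 and UT replicate 2 of _2013. Within _2010 the PBS mean was 5.18 and the LPS mean 2.32. Measured against the threshold, Cldn5 was at least 6.43-fold higher with PBS in that year.

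The receptor genes of endothelial growth factors followed the same arrays at lower values. Tek, the angiopoietin receptor, was 4.18 and 3.63 on the PBS arrays of _2010, 2.51 on UT replicate 2 of _2013 and 2.19 on the other 15 arrays. Flt1, a VEGF receptor, was 3.85 and 3.58 on the PBS arrays of _2010 and at most 2.27 on the other 16, on the probe set used. The other Flt1 probe sets were near the floor on those PBS arrays, at 2.26 or less. Esam, an adhesion molecule of endothelial junctions, was 2.93 and 4.20 on the PBS arrays of _2010, 3.56 on UT replicate 2 of _2013 and 2.19 or 2.20 elsewhere. Within _2010 these were at least 2.65-fold (Tek), 2.33-fold (Flt1) and 2.10-fold (Esam) higher with PBS than the threshold at which LPS lay or below. The measured means were 3.90 against 2.19 for Tek, 3.71 against 2.23 for Flt1, and 3.57 against 2.20 for Esam.

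Kdr, the main VEGF receptor, was over 0.1 above its recurring value on the same 3 arrays, at 2.96 and 4.57 on the PBS arrays of _2010 and 3.41 on UT replicate 2 of _2013, and was highest on DAP12KO replicate 5 (5.03). The other 3 endothelial genes were highest on other arrays. Cdh5, the cadherin of endothelial junctions, was highest on UT replicate 1 of _2013 (3.86) and DAP12KO replicate 2 (3.73) and near the floor on all 4 arrays of _2010. Tie1, an orphan receptor of the angiopoietin system, was 4.03 on the PBS array of _2008 and 2.19 on the other 17. Pecam1, an adhesion molecule of endothelium that leukocytes carry too, was 10.56, 5.25, 8.06 and 2.96 on the DAP12KO arrays. It was 3.35, 4.87, 5.74 and 3.56 on the LPS arrays, 4.90, 4.24, 4.89 and 4.54 on the PBS arrays, and 3.58 to 6.79 (median 5.40) on the UT arrays. The DAP12KO arrays thus held both its highest and its lowest value.

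Among the mural genes, Rgs5, Kcnj8, Abcc9 and Vtn were above the threshold on all 4 arrays of _2010. Rgs5, a regulator of G protein signalling and a pericyte marker, was 11.31 and 10.65 on the PBS arrays of _2010, 3.34 on that of _2008 and 6.31 on that of _2013. On the LPS arrays it was 8.70 and 8.43 in _2010, 4.02 in _2008 and 2.19 in _2013. It was 4.02, 3.52, 10.81 and 5.11 on the DAP12KO arrays and 3.37 to 9.14 (median 5.29) on the UT arrays, the highest being replicate 2 of _2013. Each group therefore held both high and low arrays, and all 4 groups overlapped. The 3 other Rgs5 probe sets were also high on the PBS arrays of _2010 (7.01 to 8.91), and 2 of them on DAP12KO replicate 4 (7.92 and 7.06), with 3.45 on the third.

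Kcnj8 and Abcc9 encode the pore and the sulfonylurea receptor of the ATP-sensitive potassium channel of pericytes and are neighbours on chromosome 6, with 0 protein-coding genes between them. Kcnj8 was 6.28, 6.35, 5.22 and 2.19 on the PBS arrays (_2008, _2010, _2010 and _2013) and 2.19, 2.97, 3.84 and 2.19 on the LPS arrays in the same order. It was 2.19 on all 4 DAP12KO arrays and on 5 of 6 UT arrays, with 2.89 on UT replicate 2 of _2013. Abcc9 was 2.36, 8.26, 8.27 and 2.79 on the PBS arrays and 2.29, 6.93, 8.01 and 2.29 on the LPS arrays in the same order, 2.29, 2.19, 2.72 and 2.29 on the DAP12KO arrays, and 2.19 to 6.96 (median 2.36) on the UT arrays. Both genes were thus above the threshold on all 4 arrays of _2010, but only Kcnj8 was on the PBS array of _2008. The probe sets of Abcc9 disagreed outside _2010: another one was 7.08 on the LPS array of _2013 and 7.77 on UT replicate 2 of _2013, where the one used was 2.29 and 2.36.

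Vtn, vitronectin, an adhesive matrix protein made by pericytes, was 7.09 and 9.26 on the PBS arrays of _2010, 5.66 and 8.35 on the LPS arrays of _2010, and 2.19 on the LPS and PBS arrays of _2008 and _2013. The DAP12KO arrays were at 2.19 to 2.26, and the UT arrays at 2.19 to 3.96 (median 2.19). On this probe set all 4 arrays of _2010 were above all 14 others. The other Vtn probe set was 3.45 on LPS replicate 1 of _2010, below DAP12KO replicate 4 (3.69) and UT replicate 6 of _2013 (3.55). Cspg4, the NG2 proteoglycan, was 2.67 and 4.15 on the PBS arrays of _2010 and 2.19 on the other 16. It was at least 1.89-fold higher with PBS than with LPS in that year (means 3.41 and 2.19). The other Cspg4 probe set was at 2.19 on every array.

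On the probe sets used, Anpep, Acta2 and Tagln were above the threshold on DAP12KO replicates 1 or 4 alone. Anpep, the aminopeptidase CD13 of pericytes and some leukocytes, was 7.58 on DAP12KO replicate 4 and at most 2.31 on the other 17 arrays. Acta2, smooth muscle actin, was 4.22 on DAP12KO replicate 4 and 2.72 on replicate 1, and 2.19 elsewhere. Another Acta2 probe set was above the threshold on 2 arrays, at 2.57 on an LPS array of _2010 and 2.65 outside _2010. A further one was above it on 1 array, at 3.65 outside _2010. Tagln, an actin-binding protein of smooth muscle, was 5.06 on DAP12KO replicate 1 and at most 2.28 elsewhere. Pdgfrb, the receptor by which pericytes sense platelet-derived growth factor, was above its recurring 3.62 on 5 arrays: it was 5.57, 3.94 and 4.11 on DAP12KO replicates 1, 2 and 4, and 4.01 and 5.11 on the PBS arrays of _2010. It was lower, at 2.24, on UT replicate 4 of _2012. Another Pdgfrb probe set was 7.34 on DAP12KO replicate 4, 2.20 on replicate 1, and 7.46 and 6.77 on the PBS arrays of _2010. DAP12KO replicate 4 was thus high for Rgs5, Anpep, Acta2 (on the probe set used) and 1 probe set of Pdgfrb, with Kcnj8 and Cspg4 near the floor. Vtn was 2.26 there on the probe set used and 3.69 on its other one.

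**Figure D2:**
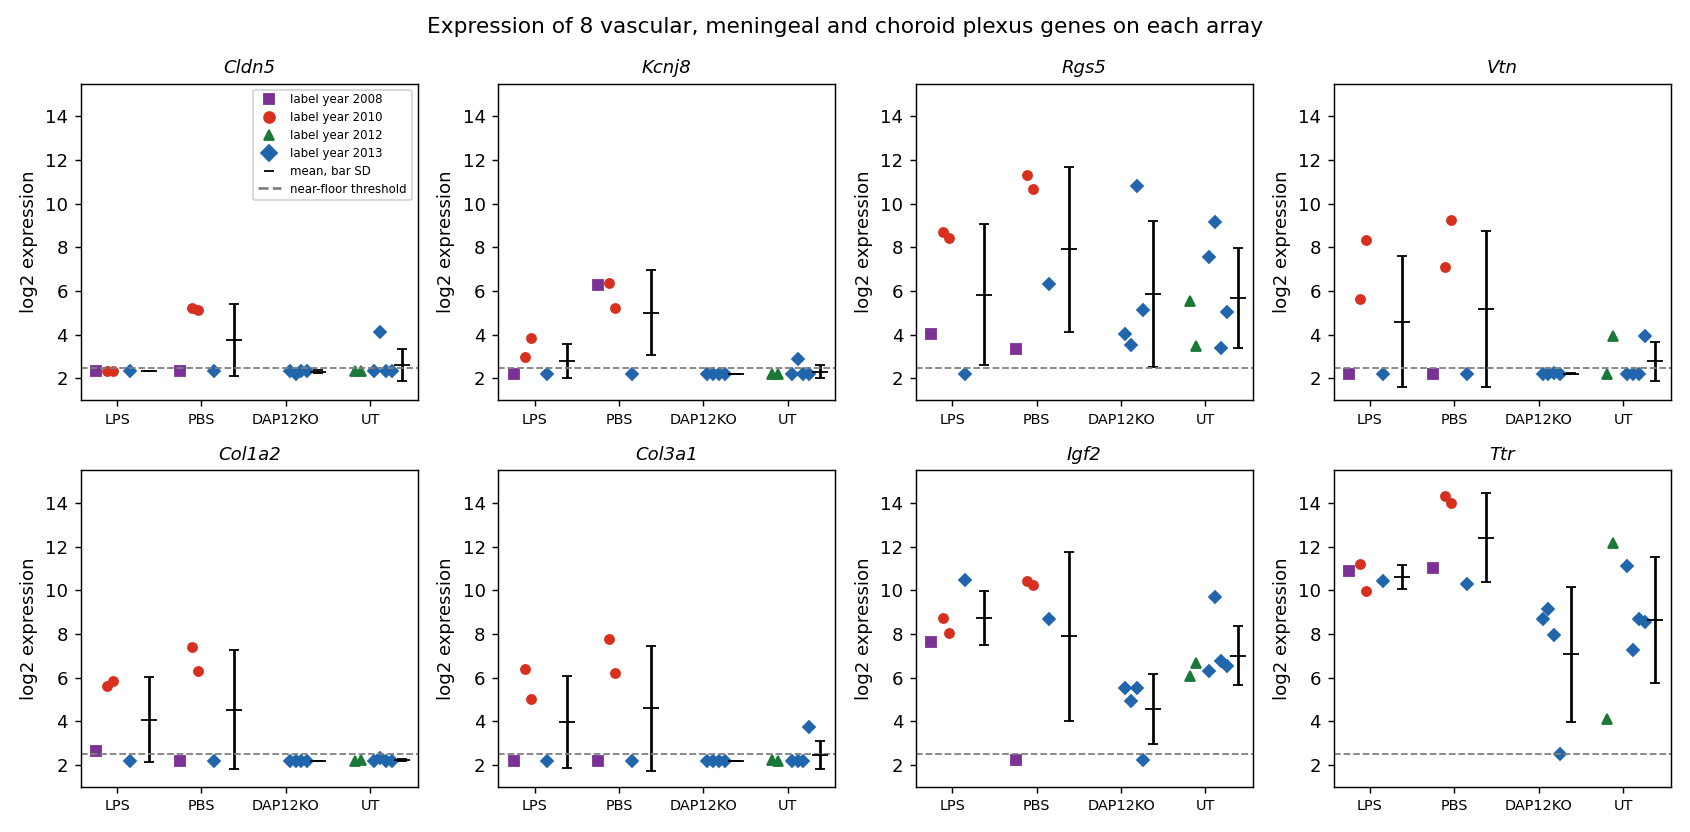
Log2 expression of 8 genes on each array (points, coloured and shaped by label year) for the 4 groups, with the group mean and SD (bars; n = 4 arrays for LPS, PBS and DAP12KO and 6 for UT) and the near-floor threshold of 2.49 (dashed line). The arrays of label year _2010 hold all values of Vtn, Col1a2 and Col3a1 above 5, and Cldn5 lies above 5 on its 2 PBS arrays.

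The fibrillar collagens marked the arrays of _2010 in both groups. Col1a1 and Col1a2 encode the chains of type I collagen, and Col3a1 that of type III collagen. Col1a1 was 6.99 and 5.27 on the PBS arrays and 6.11 and 4.89 on the LPS arrays of _2010, and at most 2.59 on the other 14. Col1a2 was 7.39 and 6.31 on the PBS arrays and 5.63 and 5.87 on the LPS arrays of _2010, and at most 2.65 elsewhere. Col3a1 was 7.79 and 6.20 on the PBS arrays and 6.42 and 5.02 on the LPS arrays of _2010, and at most 3.76 elsewhere, on UT replicate 6 of _2013. On the probe sets used, all 4 arrays of _2010 were above the 14 others for each of the 3 genes. The PBS and LPS arrays overlapped for Col1a1 and Col3a1 but not for Col1a2. The other probe sets of Col1a2 and Col3a1 were near the floor, except for 4.31 on 1 PBS array of _2010 for Col1a2. Another Col1a1 probe set gave another order: it was 7.32 on the PBS array of _2008, 4.31 and 5.09 on the PBS arrays of _2010, and 2.53 on LPS replicate 2 of _2010, with all other arrays below its 3 PBS values.

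The promoters of Col1a2 and Col3a1 are shown with that of Vtn. They were picked because, on the probe sets used, these genes and Col1a1 were higher on all 4 arrays of _2010 than elsewhere. The windows are the 250 bases before the gene's start on the plus strand of GRCm38.p6, from RefSeq, at chr6:4505368-4505617 (Col1a2), chr1:45311288-45311537 (Col3a1) and chr11:78498870-78499119 (Vtn). Of the 31 genes, 19 matched an entry of the promoter table by symbol. Capitals mark matches to CCAAT in Col1a2 and to TATAA in the others, searched on both strands.
Col1a2: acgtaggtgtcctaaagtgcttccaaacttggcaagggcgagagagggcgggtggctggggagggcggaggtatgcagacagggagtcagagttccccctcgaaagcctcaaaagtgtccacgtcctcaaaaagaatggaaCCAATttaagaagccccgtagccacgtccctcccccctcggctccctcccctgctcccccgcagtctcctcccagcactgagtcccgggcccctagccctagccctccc
Col3a1: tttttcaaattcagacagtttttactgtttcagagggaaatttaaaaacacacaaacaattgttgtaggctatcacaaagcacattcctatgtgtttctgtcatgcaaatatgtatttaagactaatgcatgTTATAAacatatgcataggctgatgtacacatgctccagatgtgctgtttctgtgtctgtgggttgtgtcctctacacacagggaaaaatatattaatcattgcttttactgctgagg
Vtn: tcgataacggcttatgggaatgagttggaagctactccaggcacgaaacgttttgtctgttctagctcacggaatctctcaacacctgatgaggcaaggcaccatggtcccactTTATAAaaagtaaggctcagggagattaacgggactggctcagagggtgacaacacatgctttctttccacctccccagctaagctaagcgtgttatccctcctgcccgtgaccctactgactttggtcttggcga
CCAAT was found in 33.8% of the 32851 promoter windows and TATAA in 22.8%. In Col3a1 and Vtn the 6 capitals hold 2 overlapping matches, 1 on each strand. The 3 windows share no motif among those searched.

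The growth factor and its binding protein behaved differently from the collagens. Igf2, a fetal growth factor of meninges, choroid plexus and vessels, was 7.64, 8.75, 8.06 and 10.46 on the LPS arrays (_2008, _2010, _2010 and _2013) and 2.21, 10.44, 10.25 and 8.71 on the PBS arrays in the same order. It was 5.55, 4.92, 5.55 and 2.21 on the DAP12KO arrays and 6.09 to 9.69 (median 6.62) on the UT arrays. On the probe set used, the 4 DAP12KO values were below all 6 UT values. How many of all genes separate these groups was not counted. On the other Igf2 probe set DAP12KO replicate 4 (7.20) was above every UT array (6.57 or less). Igfbp2, a binding protein of insulin-like growth factors, was 6.96 and 7.64 on the PBS arrays and 5.26 and 7.05 on the LPS arrays of _2010, 8.09 on DAP12KO replicate 5, and at most 5.94 on the other arrays. Dcn, decorin, a proteoglycan that binds collagen, was 5.22 on PBS replicate 1 of _2010 and at most 2.91 elsewhere.

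Among the choroid plexus genes, only Ttr was above the threshold on most arrays. Ttr, transthyretin, the thyroid hormone carrier that the choroid plexus secretes, was 14.30 and 14.001 on the PBS arrays of _2010, 11.02 on that of _2008 and 10.31 on that of _2013. On the LPS arrays it was 11.20 and 9.96 in _2010, 10.91 in _2008 and 10.43 in _2013. It was 8.70, 9.15, 7.97 and 2.49 on the DAP12KO arrays and 4.09 to 12.19 (median 8.62) on the UT arrays. The PBS arrays of _2010 were above the other 16, and the UT arrays of _2012 held both the lowest and the highest UT value. The 3 other Ttr probe sets also had the PBS arrays of _2010 highest, at 12.52 to 13.90.

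The other choroid genes were near the floor on most arrays. Otx2, a homeobox factor of the choroid epithelium, was 2.74, 5.84, 3.44 and 2.19 on the PBS arrays (_2008, _2010, _2010 and _2013) and near the floor on the other 14 arrays. Within _2010 it was at least 4.43-fold higher with PBS, with means of 4.64 and 2.24. Clic6, a chloride channel protein, was 3.19 on DAP12KO replicate 2 and 2.19 elsewhere, and Folr1, a folate receptor, was 2.52 on PBS replicate 2 of _2010 and at most 2.32 elsewhere. Kl, the co-receptor klotho, and Aqp1, the water channel of the choroid epithelium, stood at 2.45 or less and at 2.19. On the PBS arrays of _2010, where Ttr was highest, 2 and 3 of the 6 measured choroid genes were above the threshold.

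On the probe sets used, 8 of the 30 genes had both PBS arrays of _2010 above the threshold and above the other 16 arrays, against 8.32% of all 18194 genes. They were Cldn5, Flt1 and Tek (3 of 8 endothelial), Abcc9 and Cspg4 (2 of 9 mural), Col1a2 (1 of 7 fibroblast and meningeal), and Ttr and Otx2 (2 of 6 choroid). The other probe sets of Flt1, Abcc9, Cspg4 and Col1a2 did not repeat this, and those of Ttr did. Col1a1, Col1a2, Col3a1 and Vtn had all 4 arrays of _2010 above the other 14, which is 4 of 30 against 2.3% of all genes. The same 4 genes had both LPS arrays of _2010 above the 14 arrays of other years, against 2.83% of all genes. No other probe set of these 4 genes had all 4 arrays of _2010 above the threshold and above the other 14. Above the threshold on both PBS arrays of _2010 were 19 of 30, against 59.7% of all genes. These ranks were chosen after the values were seen and carry no test. Fewer vascular or meningeal cells in a sort and less of their RNA per cell cannot be told apart in such bulk samples.

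**Figure D3:**
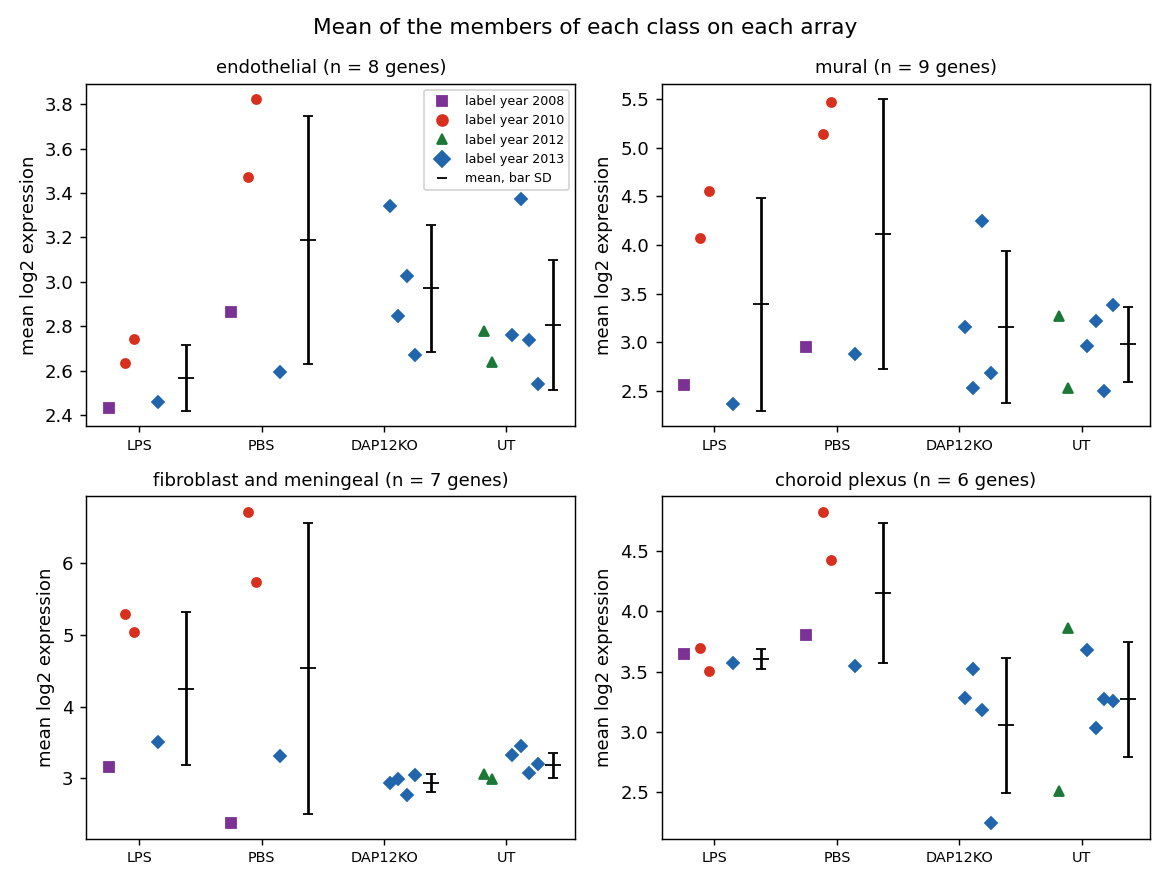
Mean log2 expression of the genes of each class on each array (points, coloured and shaped by label year) for the 4 groups, with the group mean and SD (bars; n = 4, 4, 4 and 6 arrays). Each panel has its own vertical scale, and in all 4 panels the 2 highest arrays are the PBS arrays of label year _2010.

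Class means, which are compared only between arrays, were highest on the PBS arrays of _2010 in all 4 classes. The endothelial mean was 3.47 and 3.82 there and 2.43 to 3.38 on the other 16 arrays, the highest of which was UT replicate 2 of _2013. The mural mean was 5.14 and 5.47, against 4.07 and 4.56 on the LPS arrays of _2010 and 2.36 to 4.25 on the rest. The fibroblast and meningeal mean was 6.71 and 5.73, against 5.28 and 5.04 on the LPS arrays of _2010 and 2.37 to 3.50 on the rest. The choroid mean was 4.82 and 4.42, against 2.24 to 3.86 on the other 16. The LPS arrays of _2010 were thus above all arrays of other years for the fibroblast and meningeal genes, and below several of them for the endothelial and choroid genes. The gap between the 3′ and 5′ Gapdh control probe sets, which widens as RNA degrades, was 2.23 to 3.33 on the 4 arrays of _2010, 2.01 and 2.73 on those of _2008, 1.31 and 2.77 on those of _2012, and 0.89 to 1.20 on those of _2013 except UT replicate 2 (2.23). Its part in these values was not tested.

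If these genes measure non-neural RNA, the comparison of LPS with PBS asks whether the sorts of the 2 groups held the same amount of it. In the fit of all 18 arrays with label year as a term, 0 of the 16 genes past the filter on low values differed at an adjusted p of 0.05 (limma), against 0.0946% of the 11630 genes tested (0.0086% higher, 0.086% lower). Without adjustment 3 of 16 had a p under 0.05, against 12.4%. Of these 3, Cldn5 and Otx2 were tested only because the PBS arrays of _2010 lifted them past the filter (means of 2.42 and 2.23 without them). The count is therefore a description and no support. Kcnj8 averaged 2.80 ± 0.78 (SD, n = 4 arrays) with LPS and 5.01 ± 1.95 (n = 4) with PBS, a fitted difference of −2.21 ± 0.50 (SE, limma adjusted p = 0.112). Otx2 averaged 2.22 ± 0.05 against 3.56 ± 1.61 (−1.34 ± 0.48, adjusted p = 0.267), and Cldn5 2.32 ± 0.002 against 3.75 ± 1.65 (−1.43 ± 0.52, adjusted p = 0.277). None of the 3 passed after adjustment.

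Kcnj8 was lower with LPS in _2008 (by 4.09) and in _2010 (by 2.38) and equal in _2013, where both arrays were at 2.19. Without either array of _2013 it passed (−2.95, adjusted p = 0.00593 without the LPS array and 0.00594 without the PBS array). For Cldn5 the difference was −2.86 in _2010 and 0 in _2008 and _2013, and without the 2 PBS arrays of _2010 it was 0. For Otx2 it was −0.55, −2.40 and 0 in the 3 years in order, and −0.28 without the 2 PBS arrays of _2010. The neuron and progenitor markers were highest, the microglia markers lowest and Xist at 2.21 on the same 2 PBS arrays. Xist was also at 2.21 on UT replicate 6 of _2013. Their part in these differences was not tested.

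Rgs5, Ttr and Igf2 had larger errors. Rgs5 was −2.07 ± 1.47 (adjusted p = 0.593), with 0.68, −2.42 and −4.11 in _2008, _2010 and _2013. Ttr was −1.78 ± 1.59 (adjusted p = 0.690), with −0.11, −3.57 and 0.12 in the same years and 0.007 without the PBS arrays of _2010. Igf2 was 0.83 ± 1.12 (unadjusted p = 0.472), with 5.43, −1.94 and 1.76, and −0.71 without the LPS array of _2008. The SD of the PBS arrays exceeded the difference between groups, at 3.76 for Rgs5, 2.04 for Ttr and 3.87 for Igf2. The SD of the LPS arrays did so for Rgs5 (3.24) and Igf2 (1.24) but not for Ttr (0.54).

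The collagens and vitronectin, which were high on both sides of the _2010 comparison, differed less. Col1a1 was −0.39 ± 0.39, Col1a2 −0.44 ± 0.35, Col3a1 −0.64 ± 0.49 and Vtn −0.59 ± 0.66, with adjusted p of 0.619 or more. Abcc9 was −0.54 ± 1.01, Igfbp2 −0.85 ± 0.94, Pdgfrb −0.47 ± 0.48, Kdr −0.46 ± 0.51, Pecam1 −0.27 ± 1.23 and Anpep 0 ± 0.87. Leaving out 1 array moved several of these: Col1a1 to −0.002, Col1a2 to −0.09 and Col3a1 to −0.19 without PBS replicate 1 of _2010, Kdr to −0.05 and Pdgfrb to −0.15 without PBS replicate 2 of _2010, Vtn to 0.07 without LPS replicate 1 of _2010, and Pecam1 to 0.16 without the LPS array of _2008. Without the filter, of the 30 genes 24 were lower, 1 higher and 5 equal, with a median of −0.46, against 8267 lower, 6146 higher and 3781 equal of 18194 genes with a median of 0. The 1 higher was Igf2, on the probe set used. Just inside the filter were Anpep (mean 2.498) and Otx2 (2.501), and just outside it was Cdh5 (2.464).

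**Figure D4:**
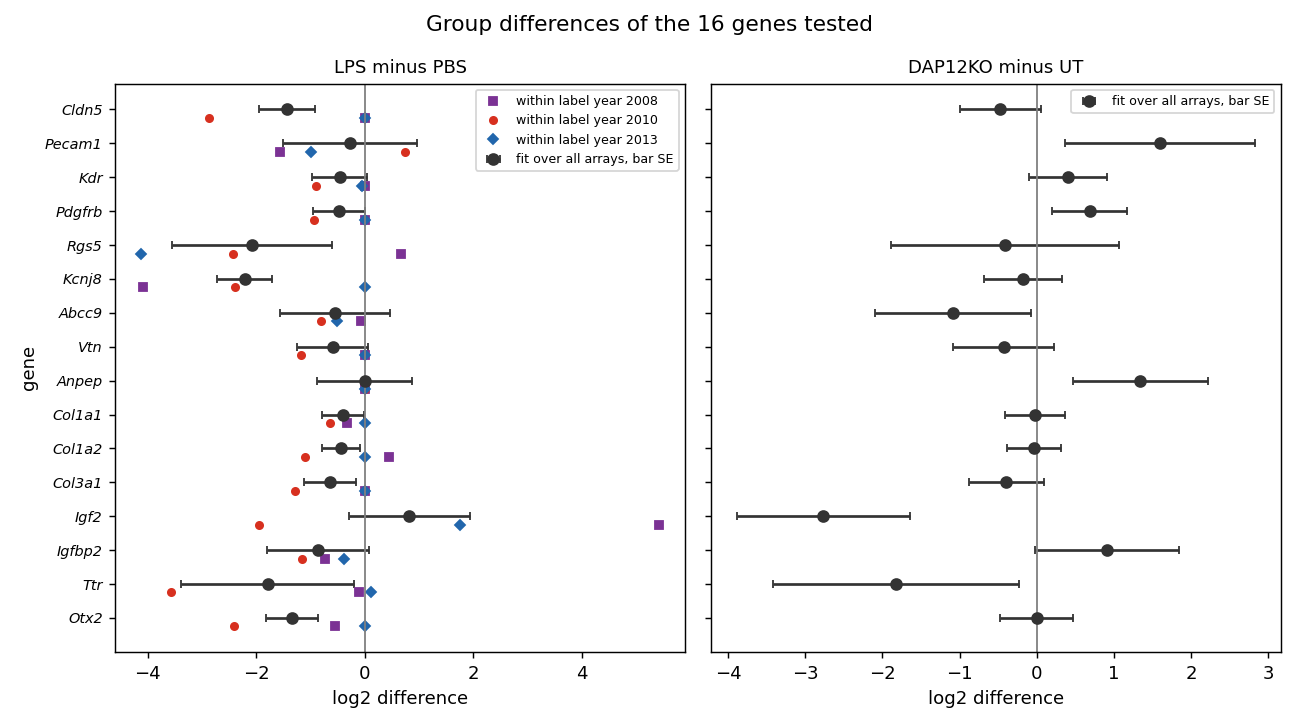
Log2 differences of the 16 genes past the filter, LPS minus PBS (left) and DAP12KO minus UT (right), as the estimate of the fit over all 18 arrays (black points, bars SE) with the differences within each label year (coloured points, left only). For LPS minus PBS the within-year points of Cldn5 are −2.86 in _2010 and 0 in _2008 and _2013, and for DAP12KO minus UT the lowest estimate is that of Igf2 (−2.77 ± 1.12).

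Within label year _2010 alone, 3 of the 16 genes passed, all lower with LPS, against 5.06% of the 11630 genes tested in either direction and 3.76% lower. Cldn5 fell by 2.86 ± 0.50 (SE, n = 2 arrays per group, limma adjusted p = 0.00502), Kcnj8 by 2.38 ± 0.42 (adjusted p = 0.00525) and Otx2 by 2.40 ± 0.53 (adjusted p = 0.0212). Cldn5 and Otx2 passed the filter only through the PBS arrays of _2010 (means of 2.42 and 2.23 without them), so the count of 3 is a description of these arrays and no support. The spread of Cldn5, Kcnj8 and Otx2 in this fit rests largely on arrays of other years at the floor. Without LPS replicate 1 of _2010 only Cldn5 passed, and without LPS replicate 2 Cldn5 and Kcnj8 did. Col1a2 (−1.10 ± 0.35, adjusted p = 0.111) and Col3a1 (−1.27 ± 0.64, adjusted p = 0.399) did not pass, nor did Ttr (−3.57 ± 2.43, adjusted p = 0.622) and Rgs5 (−2.42 ± 2.21, adjusted p = 0.785). Without the filter, 22 of the 30 genes were lower with LPS in _2010, 2 higher and 6 equal, with a median of −1.02, against 7638 lower, 5600 higher and 4956 equal of 18194 genes with a median of 0. Pecam1 was 0.74 higher with LPS.

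Whether arrays of 1 group and year are separate dams or share material is not given beyond the labels' pooling per dam. These p-values therefore measure the spread between arrays. Where a gene rests at 1 value on most arrays, the floor largely sets that spread, which can be too small for higher arrays. Kcnj8 and Col3a1 rested at 2.19 and Col1a1 at 2.28 on 12 arrays each, and Col1a2 at 2.19 on 11.

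Class means were lower with LPS in _2010 for all 4 classes and mixed in the other years. The endothelial mean differed by −0.43, −0.96 and −0.14 in _2008, _2010 and _2013, and the mural mean by −0.39, −0.99 and −0.51. The fibroblast and meningeal mean differed by 0.79, −1.06 and 0.20, and the choroid mean by −0.15, −1.02 and 0.02. In _2008 and _2013, with 1 array per group, these differences have no replicate check.

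The comparison of DAP12KO with UT asks what the loss of DAP12 changes in otherwise untreated cells. All DAP12KO arrays are of label year _2013, so the UT arrays of _2013 set the differences. In limma 0 of the 16 genes differed at an adjusted p of 0.05, against 0% of the 11630 genes, and 1 of 16 at an unadjusted p of 0.05, against 5.48%. That gene was Igf2, lower in the arrays labelled DAP12KO by 2.77 ± 1.12 (SE, n = 4 and 6 arrays, adjusted p = 0.854), at 4.56 ± 1.59 (SD) against 7.01 ± 1.33. All 4 were lower than the mean of the UT arrays of _2013, and the difference was −1.98 without UT replicate 2 of _2013. With the mean of both Igf2 probe sets it was −1.27, the other probe set being 7.20 on DAP12KO replicate 4 and 2.76 or less on the other 3, and 6.57 on UT replicate 3 of _2013 and 2.39 on the other 3 UT arrays of that year. On that probe set the groups overlapped.

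Single arrays set most of the other differences between DAP12KO and UT. Ttr was −1.82 ± 1.59 (adjusted p = 0.926) and −0.29 without DAP12KO replicate 5. Pecam1 was 1.60 ± 1.23 (adjusted p = 0.925) and 0.31 without replicate 1. Anpep was 1.35 ± 0.87 (adjusted p = 0.908) and 0 without replicate 4, the only array that took it past the filter. Rgs5 was −0.41 ± 1.47 (adjusted p = 1) and −2.06 without replicate 4. Abcc9 was −1.09 ± 1.01 (adjusted p = 0.933) and 0.07 without UT replicate 6 of _2013, and Igfbp2 was 0.91 ± 0.94 (adjusted p = 0.947) and −0.14 without DAP12KO replicate 5.

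Pdgfrb (0.69 ± 0.48, adjusted p = 0.912) was 0.27 without DAP12KO replicate 1, and Kdr (0.41 ± 0.51, adjusted p = 0.968) was −0.14 without replicate 5. Cldn5 (−0.47 ± 0.52, adjusted p = 0.961) was −0.02 and Kcnj8 (−0.17 ± 0.50, adjusted p = 1) 0 without UT replicate 2 of _2013. Vtn (−0.43 ± 0.66, adjusted p = 0.974) was 0.02 and Col3a1 (−0.39 ± 0.49, adjusted p = 0.968) 0 without UT replicate 6 of _2013. Col1a1 (−0.02 ± 0.39), Col1a2 (−0.04 ± 0.35) and Otx2 (0 ± 0.48) were near the floor in both groups. The class means differed by 0.12 (endothelial), 0.14 (mural), −0.33 (fibroblast and meningeal) and −0.26 (choroid). Over the 30 genes 14 were lower, 9 higher and 7 equal, against 6517 lower, 7055 higher and 4622 equal of all 18194, each with a median of 0.

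The difference between the responses, LPS minus PBS minus that of DAP12KO minus UT, passed for 0 of 16 genes, against 0% of all genes tested (limma). At an unadjusted p of 0.05 it was met by 2 of 16, against 8.11%. They were Kcnj8 (−2.04 ± 0.71, adjusted p = 0.574) and Igf2 (3.59 ± 1.59, adjusted p = 0.592). Between label years _2012 and _2013, a comparison that rests on the UT arrays, 0 of 16 passed against 0% of all genes. At an unadjusted p of 0.05 there were also 0 of 16, against 5.16%. The differences ran from −1.75 ± 1.80 for Rgs5 to 1.11 ± 1.24 for Abcc9.

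Other markers of the same tissues were read from 4 further lists. Whether genes of these lists, or of the basement membrane and ligand lists below, passed the filter only through the PBS arrays of _2010 was not examined. Their passes within _2010 are therefore a description and no support. Of 18 further endothelial genes 7 were tested and 0 passed in any of the 5 comparisons. Their mean was 4.01 and 3.85 on the PBS arrays of _2010 and 3.60 to 4.28 on the other 16, so the PBS arrays of _2010 did not stand apart, and the highest value was on DAP12KO replicate 4. The lowest p for LPS minus PBS were those of Sox18, an endothelial transcription factor (1.56 ± 0.85, adjusted p = 0.461), and Slco1c1, a thyroid hormone transporter of brain capillaries (−2.08 ± 1.28, adjusted p = 0.524). For DAP12KO minus UT they were those of Eng (1.40 ± 0.80, adjusted p = 0.908), a co-receptor for TGF-β, and Egfl7 (0.80 ± 0.69, adjusted p = 0.926).

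Of 11 further mural genes 2 were tested, and on the PBS arrays of _2010 the list mean was 2.66 and 3.05, against 2.19 to 2.94. Of these 2, 1 passed within _2010, lower with LPS, against 3.76% of all genes tested. That was Myl9, a myosin light chain of smooth muscle, which fell by 4.45 ± 0.97 (limma adjusted p = 0.0186). Over all years Notch3 (−1.16 ± 0.79, adjusted p = 0.573) and Myl9 (−0.93 ± 1.20, adjusted p = 0.814) did not pass. The same genes were −0.94 ± 0.79 (adjusted p = 0.926) and −0.71 ± 1.20 (adjusted p = 0.979) for DAP12KO minus UT.

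The 19 further fibroblast and meningeal genes separated the PBS arrays of _2010 from the rest. Their mean was 3.89 on both, 2.93 and 3.01 on the LPS arrays of _2010, and 2.43 to 2.89 on the other 14. Of 6 tested, 2 passed within _2010, both lower with LPS, against 3.76% of all genes tested. Col5a2, a chain of type V collagen, fell by 3.25 ± 0.51 (limma adjusted p = 0.0021), and Bgn, biglycan, by 2.55 ± 0.41 (adjusted p = 0.00239). Over all years neither passed (−1.74 ± 0.54, adjusted p = 0.216, and −1.28 ± 0.46, adjusted p = 0.273). In the DAP12KO comparison the lowest p were those of Col5a1 (−0.85 ± 1.05, adjusted p = 0.968) and Fstl1 (0.57 ± 1.22, adjusted p = 0.986).

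The 18 further choroid and ependymal genes had a mean of 2.88 and 2.76 on the PBS arrays of _2010 and 2.22 to 2.93 on the others, the highest being the PBS array of _2008. Of 5 tested, 2 passed within _2010, both lower with LPS, against 3.76% of all genes tested. Sostdc1, a secreted inhibitor of BMP and Wnt signals, fell by 3.13 ± 0.32 (adjusted p = 9.56e-05) and Rsph1, a protein of motile cilia, by 2.27 ± 0.59 (adjusted p = 0.045). Over all years Sostdc1 (−1.57 ± 0.49, adjusted p = 0.216) and Calml4 (−1.40 ± 0.58, adjusted p = 0.340) had the lowest p. For DAP12KO minus UT Calml4 was 0.05 ± 0.58 and Kcnj13, a potassium channel of the choroid epithelium, −0.09 ± 1.32, each with an adjusted p of 1.

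Genes of the vessel wall and its signals, some of which microglia can also express, were in part above the threshold on every array. These were 6 to 8 of 9 basement membrane genes and 7 to 12 of 15 vascular ligands and co-receptors. The 9 basement membrane genes had a mean of 7.83 and 7.95 on the PBS arrays of _2010, 6.49 and 6.73 on the LPS arrays of _2010, 7.03 on UT replicate 2 of _2013, 6.65 on DAP12KO replicate 4 and 5.04 to 5.76 on the rest. Of 8 tested, 1 passed within _2010, higher with LPS, against 1.31% of all genes tested. That was Sparc, a matrix glycoprotein that microglia make, higher by 1.01 ± 0.14 (limma adjusted p = 0.000911). Over all years Lamb1, a laminin chain, was −2.27 ± 0.93 (adjusted p = 0.339) and Sparc 0.39 ± 0.19 (adjusted p = 0.401). Between DAP12KO and UT, Lamb1 was −2.29 ± 0.93 (adjusted p = 0.854) and Col4a1, a chain of type IV collagen, −2.08 ± 1.01 (adjusted p = 0.903).

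Of 15 vascular ligands and co-receptors 12 were tested, and within _2010 3 fell and 1 rose with LPS. Of all genes tested, 3.76% fell and 1.31% rose in that year. Angpt1, the ligand of the receptor encoded by Tek, fell by 2.08 ± 0.25 (adjusted p = 0.000361), Vegfc, a lymphatic growth factor, fell by 4.26 ± 0.65 (adjusted p = 0.00178) and Jag1, a Notch ligand, fell by 1.96 ± 0.34 (adjusted p = 0.0043). Tgfb1, a growth factor of microglia and vessels, rose by 2.23 ± 0.57 (adjusted p = 0.0439). Over all years Angpt1 was −1.60 ± 0.35 (adjusted p = 0.101) and Vegfc −2.13 ± 0.71 (adjusted p = 0.240). In arrays labelled DAP12KO against UT, Igf1r was 0.99 ± 0.41 (adjusted p = 0.854) and Vegfa 1.02 ± 0.78 (adjusted p = 0.922).

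Markers of microglia and of neural cells are given beside these results. Within _2010, 9 of 13 microglia genes rose with LPS, against 1.31% of all genes tested, led by Siglech (1.67 ± 0.24, adjusted p = 0.00107) and Cx3cr1 (1.47 ± 0.22, adjusted p = 0.00138), with Itgam (3.03 ± 0.51) and P2ry12 (1.06 ± 0.20) next. In the same year, where 3.76% of all genes fell, 4 of 10 progenitor genes did (Hopx by 2.91 ± 0.63, Emx2 by 2.89 ± 0.68, Vim by 1.48 ± 0.35 and Fabp7 by 1.15 ± 0.28), as did 2 of 14 neuron genes (Nefm by 2.07 ± 0.30 and Neurod6 by 2.75 ± 0.71). Over all years 0 genes of these lists passed. The 2 genes of each list with the lowest p were, for microglia, neurons and progenitors together, Itgam (2.25 ± 0.43, adjusted p = 0.0648), Olfml3 (0.62 ± 0.17, adjusted p = 0.169), Tnc (−2.95 ± 0.73, adjusted p = 0.146), Nefm (−1.26 ± 0.36, adjusted p = 0.185), Fabp7 (−0.75 ± 0.23, adjusted p = 0.207) and Rbfox3 (−2.38 ± 0.85, adjusted p = 0.269). For DAP12KO minus UT they were Aif1 (0.36 ± 0.17) and C1qb (−0.18 ± 0.14), Map2 (−1.12 ± 0.57) and Dcx (−0.76 ± 0.40), and Tnc (1.21 ± 0.73) and Emx2 (−0.98 ± 0.60), none of which passed.

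Border-associated macrophages, which line vessels, meninges and the choroid plexus and also carry Cx3cr1, were marked by 8 genes. Their mean was 10.68 and 10.50 on the PBS arrays and 11.20 and 10.88 on the LPS arrays of _2010, and 8.46 to 11.10 on the other 14, among them 10.61 and 8.81 on the UT arrays of _2012. With LPS the lowest p were those of Stab1 (0.34 ± 0.26, adjusted p = 0.619) and Ms4a7 (−0.87 ± 0.90, adjusted p = 0.752). In the arrays labelled DAP12KO Lyve1, a hyaluronan receptor, was −2.72 ± 0.82 (adjusted p = 0.678) and F13a1 −1.84 ± 0.76 (adjusted p = 0.854), and 6 of 8 genes were lower than in UT. The mean of 6 red cell genes was 3.83 to 4.92 on all arrays, with Slc4a1 (0.45 ± 0.34, adjusted p = 0.609) and Hba-a2 (0.14 ± 0.23, adjusted p = 0.868) for LPS minus PBS. Against UT, Alas2 in DAP12KO was −0.43 ± 0.47 (adjusted p = 0.956) and Slc4a1 −0.01 ± 0.34 (adjusted p = 1). None of these lists was tested as a cause of the vascular, meningeal or choroid values.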

How the data were processed

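RNA of 18 sorted samples was measured on Affymetrix arrays. The deposited values are log2 expression per probe set, made with RMA per the submitters' processing notes (variant and version: not given in the sources used here). Many probe sets share a hard lowest value, which plain RMA does not usually give, so which background step set the floor and the recurring values is not known. Of 45101 probe sets, 34958 name 1 gene symbol, 932 several and 9211 none. Each gene took its single-gene probe set with the highest mean over all arrays. Genes with a mean under the 40th percentile (log2 2.49) were left out of the tests, leaving 11630 of 18194.

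All 18 arrays were fitted with limma 3.58.1 (R 4.3.3), a mean per group and an added term for label year (11 residual df) and an intensity trend. A fit with a mean per group and year (9 df) gave LPS minus PBS within _2010. Two-sided p-values were adjusted by Benjamini-Hochberg over all tested genes, with a threshold of 0.05. A lower bound on a fold was computed against the threshold. Array numbers limit the precision. Named genes were the 31 members, and of each other list those past the threshold (up to 4, lowest p first) or, where none passed, the 2 with the lowest p in the LPS and DAP12KO comparisons. The members and lists were chosen with earlier results of these data known. For arrays of the same replicate number, deviations from the mean of the array's group and year were correlated across the tested genes. They correlated at 0.53 (LPS and PBS, _2010), −0.01 and 0.008 (DAP12KO and UT, _2013). With fewer than 3 pairs in a year the labels' numbers were treated as names only. Alternatives are given in the closing section. Figures used matplotlib 3.10.9.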

Additional observations from a re-analysis of the deposited data

Results flagged for a closer look

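In 23 of the 80 groups of arrays examined (a gene in a group with a value above the threshold, or a class mean in a group), 1 array stood far from the others of its group. With 4 to 6 arrays chance gives about 1 in 20 groups such an array, and a gene that rests at 1 value meets the criterion by any single departure.

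In UT, replicate 2 of _2013 was high for Cldn5 (4.10), Esam (3.56), Tek (2.51), Kcnj8 (2.89), Igf2 (9.69) and the endothelial class mean (3.38). Replicate 1 of _2013 was high for Cdh5 (3.86) and Igfbp2 (5.94), and replicate 6 of _2013 for Col3a1 (3.76). Replicate 4 of _2012 was low for Pdgfrb (2.24).

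In DAP12KO, replicate 4 was high for Anpep (7.58), Acta2 (4.22) and Abcc9 (2.72), replicate 1 for Tagln (5.06), replicate 2 for Cdh5 (3.73) and Clic6 (3.19), and replicate 5 for Kdr (5.03).

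In PBS, replicate 2 of _2010 was high for Kdr (4.57), Cspg4 (4.15) and Folr1 (2.52), replicate 1 of _2010 for Dcn (5.22) and the array of _2008 for Tie1 (4.03). In LPS, replicate 2 of _2010 was high for Kdr (2.91).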

How the results depend on the processing

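For LPS minus PBS, 0 of the tested members passed as reported and under each other setting over all the arrays it uses except array weights, where 3 passed (Cldn5 at −2.29, Kcnj8 at −2.10 and Otx2 at −1.84). Cldn5 and Otx2 were past the filter only through the PBS arrays of _2010, so these 3 passes are no support. With 1 array left out the count ran from 0 to 1, Kcnj8 passing when either of the _2013 arrays was left out. For LPS minus PBS within _2010 the count of 3 became 6 with no filter, where Col1a2, Flt1 and Tek joined and 671 of 18194 genes passed in all, and 0 with a filter at the 60th percentile, which leaves 4 members. With 1 array left out it ran from 1 to 4. For DAP12KO minus UT, the difference of the responses and _2012 against _2013 the count was 0 under every alternative run. With the replicate block it was 0 for LPS minus PBS, for the DAP12KO contrast and for the difference of responses. Within _2010 a replicate block, chosen after seeing the data, kept 3 members (Cldn5, Kcnj8 and Otx2) and gave 663 genes in all. Over all genes the 11 calls of LPS minus PBS became 0 with no label year term, a 60th percentile filter, only the groups of the contrast or the replicate block, 1 with no filter, 6 with the mean of a gene's probe sets, 3 with no intensity trend, 3 with values near the floor set to the threshold, 5 without _2010 and 826 with array weights, and 0 to 120 with 1 array left out. The 589 calls within _2010 became 1232 with array weights, 29 with the 60th percentile filter, and 320 to 531 with 1 array left out. For _2012 against _2013 the 0 calls became 32 with array weights and 53 without UT replicate 3 of _2012. The choroid class mean moved to −1.56 for LPS minus PBS and −0.91 for DAP12KO minus UT over the members past the filter, and the endothelial one to 0.51 for DAP12KO minus UT. The number of arrays and signals at the floor limit these values.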
